A study of Phyllostachys edulis with 12 samples.

Results

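Transcript levels after 24 h at -2 °C were set against those after 1 h in whole seedlings of Phyllostachys edulis, the woody grass known as moso bamboo. The 5 libraries of this comparison, 2 at 24 h and 3 at 1 h, were taken by the time of cold in the sample labels, out of 12 labelled samples in the series and 11 with a column of counts used here. The seedlings were 3 weeks old and at the 3-leaf stage. The 24 h and 1 h groups had both been kept in a freezing chamber at -2 °C, with light and day length as for the controls, so they differ in the labels by the time in the cold alone. The other libraries came from seedlings chilled for 0.5 h (3 libraries) and from greenhouse seedlings without cold (3 libraries). The labels do not say whether a library is 1 plant or a pool, nor at what clock time or on what day each group was harvested. The p-values therefore rest on a spread between samples that may be technical. Effects of harvest time or library preparation and of the time in the cold cannot be told apart where both run with the groups.

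Plants exposed to cold respond in stages. Calcium signals and transcription factors such as the CBF/DREB family act early, and the slower acclimation that follows includes protective proteins (dehydrins and other LEA proteins), soluble sugars, changes in membrane lipids and adjustments of photosynthesis and growth. The comparison of 24 h with 1 h covers the interval between the early and the slower stage. The table gives identifiers without gene names, and no table of names was used here, so none of these pathways could be followed, no role is given to any gene, and the tissue could not be checked against marker genes. In whole seedlings, fewer cells of a type and less RNA per cell cannot be told apart.

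Total counts were 29953291 and 32510246 in the 24 h libraries, against 31344042 to 34543663 in the 1 h libraries. Genes with at least 1 count numbered 40595 and 41002 at 24 h, against 41235 to 41705 at 1 h. Over the 18134 genes whose mean log2 CPM (counts per 1000000, scaled with TMM factors) was 3 or higher, the pair of 24 h libraries differed by a median of 0.16 on the log2 scale and correlated across genes at a Pearson r of 0.958. Replicates 1 and 3 at 1 h differed by a median of 0.138. Replicate 2 at 1 h stood apart, with a median difference of 0.241 from each of the other two and correlations of 0.934 and 0.936. Between a 24 h and a 1 h library the median difference was 0.246 to 0.362, the largest values being those with 1 h replicate 2, and 4.81% to 8.96% of these genes differed at least 2-fold. These correlations are across genes, which are not independent replicates.

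Between 1 h and 24 h in the cold, 1844 genes rose and 2007 fell. Among the risen genes the median level was 39.5 CPM at 24 h, against 20.5 CPM at 1 h. Among the fallen genes it was 4.15 CPM at 24 h, against 9.06 CPM at 1 h. Per kilobase of the deposited gene length, the risen genes stood at a median of 8.2 CPM at 24 h and 3.99 CPM at 1 h, and the fallen genes at 0.841 CPM at 24 h and 2.07 CPM at 1 h. Together the 3851 genes were 9.71% of the 39640 tested with edgeR's quasi-likelihood test at a Benjamini-Hochberg adjusted p under 0.05. At an unadjusted p under 0.05, 4756 genes (12%) were higher and 5351 (13.5%) lower. Both 24 h libraries lay above all 3 at 1 h in 1841 of the risen genes and below all 3 in 2005 of the fallen genes, beside 20.4% and 21.9% of all genes tested. The calls rest on the same values, so nothing is read from these counts.

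**Figure D1:**
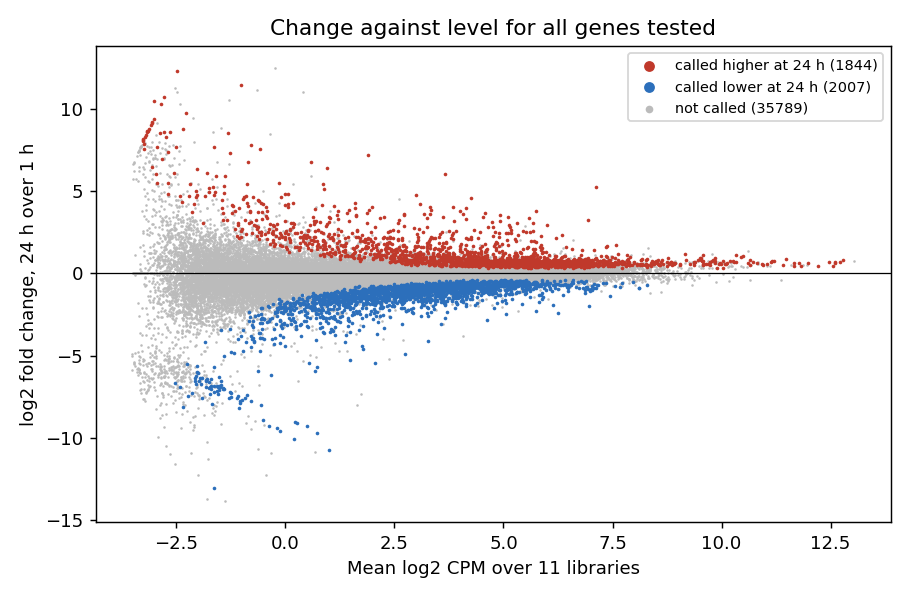
Each point is 1 of 39640 genes, with its mean log2 CPM over the 11 libraries on the x axis and its log2 fold change, 24 h over 1 h, on the y axis. The 1844 genes called higher (red) reach further to the right, to the most abundant genes, than the 2007 called lower (blue), and the bands of uncalled genes (grey) widen towards low counts.

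Of the risen genes, 696 (37.7%) rose at least 2-fold, and of the fallen genes 1176 (58.6%) fell at least 2-fold. These counts depended on the setting: limma-voom gave 806 risen and 731 fallen genes, the fit of the 5 libraries alone 606 and 585, and library size alone 527 and 2179. At 4-fold or more the shares were close, with 343 (18.6%) of the risen and 340 (16.9%) of the fallen genes, and their order depended on the setting. With DESeq2 the fallen share was the larger, at 524 of 3034 genes against 432 of 2895 risen genes. At this size limma-voom gave 407 risen and 135 fallen genes, the fit of the 5 libraries alone 336 and 193, and library size alone 286 and 532. Without 24 h replicates 1 and 2, 414 and 429 genes rose and 597 and 646 fell at least 2-fold, and 217 and 213 rose at least 4-fold. The median log2 fold change was 0.80 among the risen genes and -1.14 among the fallen genes, beside -0.033 over all genes tested, and the median standard error was 0.169 among the risen and 0.23 among the fallen genes. Since the sets were chosen on this contrast, these sizes are a description without a test. A set of 30 risen genes had 0 counts in all 3 libraries at 1 h. Against a floor of 3 counts over the 1 h group, they were at least 10.7-fold to 679-fold higher at 24 h (median bound 51.9-fold), at 0.308 to 19.6 CPM. A set of 69 fallen genes had 0 counts in both libraries at 24 h and stood at 0.174 to 32.7 CPM at 1 h, so with 3 counts over the 24 h group as the floor they were at least 3.28-fold to 619-fold lower. With such genes at these bounds, 101 genes rose and 44 fell at least 16-fold, and the medians stayed at 0.80 and -1.14.

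The count of called genes changed with the libraries in the fit. Leaving out 1 control or 0.5 h library, outside the contrast, lowered it to between 3187 and 3841. Fewer libraries and the values of a single library cannot be told apart as reasons. Without 24 h replicate 1 or 2, edgeR called 1260 and 1347 genes, of which 581 and 623 were higher, and the lone 24 h library is then assumed to vary like the other groups. Without 1 h replicate 2, the library that stood apart, 2498 genes were called, 1155 higher and 1343 lower, and without 1 h replicate 3, 2522 were called, 1080 higher and 1442 lower. A fit of the 5 libraries alone called 1711 genes (4.51% of its 37916), 962 higher and 749 lower, and DESeq2 called 5929 (15% of the genes tested), 2895 higher and 3034 lower. limma-voom called 3208 (8.09%), 1889 higher and 1319 lower. The split into higher and lower depended on the scaling: TMM gave 47.9% higher, and library size alone gave 18.5% higher (963 higher and 4245 lower, in all 13.1% of the genes tested) with a median log2 fold change over all genes of -0.251. The TMM factors were 0.892 and 0.923 at 24 h, against 1.051 to 1.064 at 1 h. Under 20 alternatives none of the 3851 genes was called in the opposite direction. Every alternative drew on the same libraries, so this is no independent check.

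**Figure D2:**
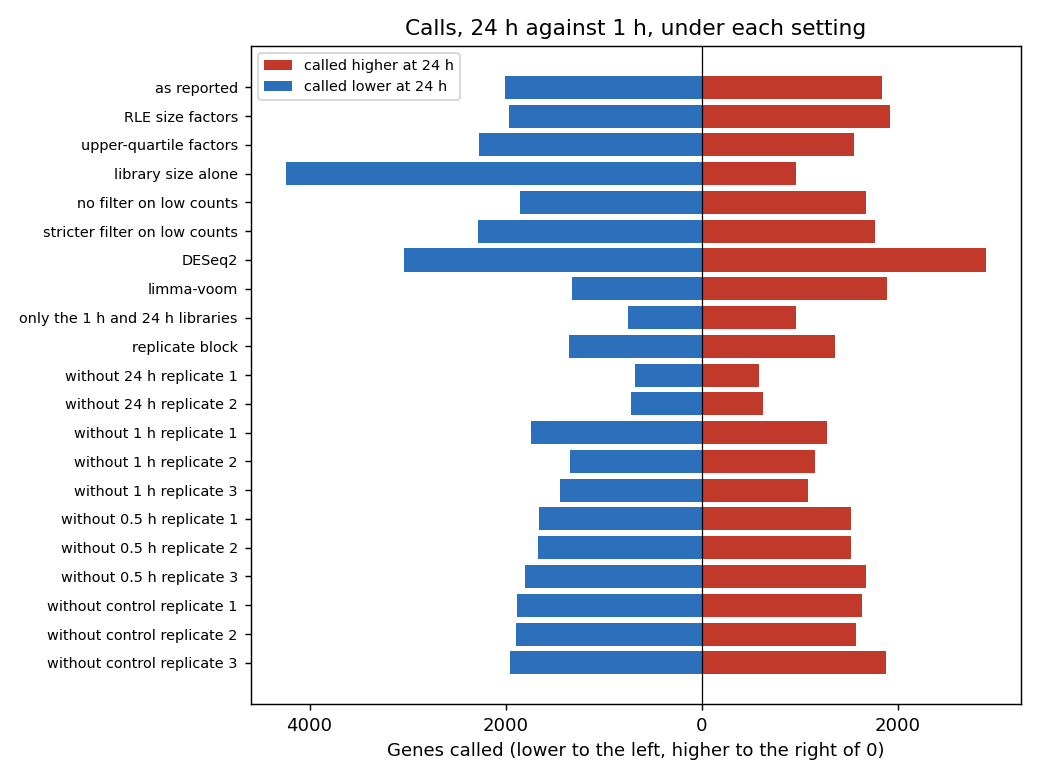
Bars give the number of genes called for 24 h against 1 h in each setting (rows), higher to the right of 0 in red and lower to the left in blue. Leaving out a 24 h library cuts both bars most, to 1260 and 1347 calls, and library size alone lengthens the lower bar to 4245 genes.

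A smaller set was called in the same direction in every one of these 20 alternatives, namely 336 risen and 300 fallen genes. The 336 risen genes had medians of 54.7 CPM at 24 h and 14.9 CPM at 1 h, and their log2 fold changes had a median of 1.73. Their medians in the libraries outside this comparison were 16.9 CPM at 0.5 h and 13.5 CPM in the controls. The 300 fallen genes had medians of 3.68 CPM at 24 h and 11.5 CPM at 1 h, with a median log2 fold change of -1.61, and of 10.9 CPM at 0.5 h and 11.8 CPM in the controls. At least 2-fold changes made up 262 of the 336 and 274 of the 300.

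Rises and falls lay at different levels of abundance. Among the 1477 genes with a mean level of 100 CPM or more (the geometric mean over the 11 libraries), 296 (20%) were called higher and 33 (2.23%) lower, beside 4.65% higher and 5.06% lower over all genes tested. Among the 14523 genes of 1 to 10 CPM the order was the other way, with 427 (2.94%) higher and 1007 (6.93%) lower. From 10 to 100 CPM, 972 (6.55%) were higher and 809 (5.45%) lower, and below 1 CPM the shares were 1.69% and 1.8%. The mean includes the 24 h libraries, so a rise helps a gene into a high class and a fall helps it out. By the level at 1 h instead, which the contrast also uses, 242 (17.2%) of the 1406 genes at 100 CPM or more were higher and 44 (3.13%) lower. Of the 14863 genes at 1 to 10 CPM, 434 (2.92%) were higher and 969 (6.52%) lower, and below 1 CPM 2.29% were higher and 1.08% lower. The rises of the abundant genes by mean level were moderate, with a median log2 fold change of 0.645 among the 296, of which 2 reached 4-fold. Over all genes of a class by mean level, called or not, the median log2 fold change was -0.23 below 1 CPM and -0.133 at 1 to 10 CPM. It was 0.046 at 10 to 100 CPM and 0.207 at 100 CPM or more. These medians include the called genes, so whether the shift with level extended to uncalled genes was not tested, nor was its cause. The share of genes that can be called depends on depth, since the median standard error was 0.145 at 100 CPM or more and 0.917 below 1 CPM.

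The imbalance at high abundance kept its direction under every scaling tried but not its size. With library size alone, 125 abundant genes were higher and 99 lower, and with upper-quartile factors 229 were higher and 36 lower. Without 24 h replicate 1 it was 63 higher and 11 lower, without 24 h replicate 2 it was 77 and 11, and without 1 h replicates 1, 2 and 3 it was 193 and 35, 176 and 23, and 159 and 23. Among genes of 1 to 10 CPM, library size alone gave 294 higher and 1833 lower, and leaving out 24 h replicate 1 or 2 gave 184 and 188 higher and 352 and 375 lower. Without 1 h replicate 2 it was 293 higher and 623 lower. A measure that needs no scaling factor is the share of a library's counts. The abundant class took 49.5% and 47.7% of all counts at 24 h, against 43.8%, 43.3% and 44.3% at 1 h. It took 45.5% to 47.5% at 0.5 h and 44.6% to 47% in the controls, so the 24 h libraries were the highest of all and the 1 h libraries the lowest. Genes of 1 to 10 CPM took 5.72% and 6.27% at 24 h, against 7.12%, 7.03% and 6.94% at 1 h. Genes of 10 to 100 CPM took 44.3% and 45.4% at 24 h, against 48.5%, 49.1% and 48.2% at 1 h. In that class more genes were called higher than lower, so the share of a class and its calls need not move together. The 10 most abundant genes of each library took 7.33% and 6.89% at 24 h, against 5.42%, 4.65% and 5.57% at 1 h.

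**Figure D3:**
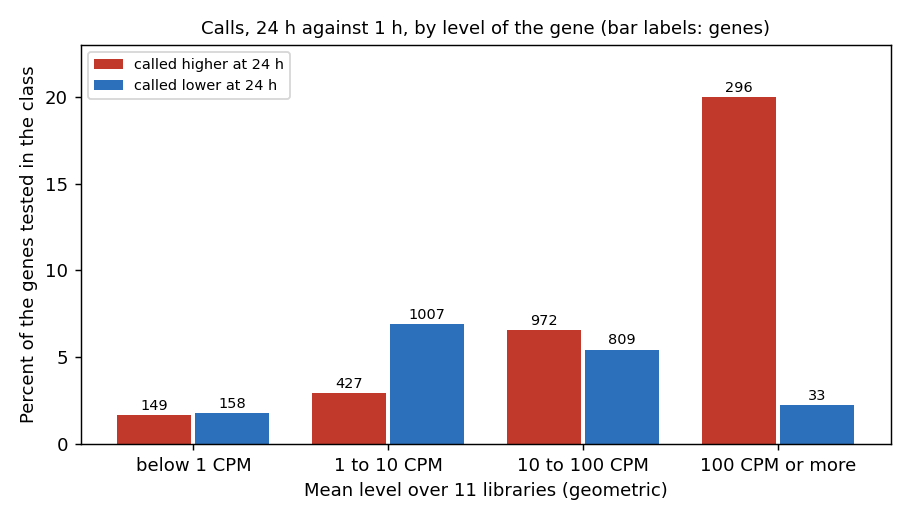
Bars give the percent of the genes tested in each class of mean level (CPM, x axis) that were called higher (red) or lower (blue) at 24 h than at 1 h, with the number of genes above each bar. At 100 CPM or more 20% were higher and 2.23% lower, while at 1 to 10 CPM 2.94% were higher and 6.93% lower.

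Among the called genes, the change in counts was carried by fewer genes on the rising side than on the falling side. Their summed rise was 120000 CPM and their summed fall 16770 CPM. The TMM factors were lower at 24 h than at 1 h, so scaled CPM sums to more per library at 24 h. Both sums, and the gap between them, depend on that scaling. The 10 genes that gained most CPM made up 21.9% of the summed rise of the 1844 genes, and the top 100 made up 60%. The 10 that lost most made up 6.89% of the summed fall, and the top 100 made up 29.5%. A gain of at least 100 CPM was seen in 187 risen genes and a loss of that size in 6 fallen genes. These counts rest on the same scaling, and such changes were not counted over all genes tested. The risen genes took 27% and 26.5% of all counts at 24 h, against 19%, 17.5% and 19% at 1 h. The fallen genes took 1.79% and 1.81% at 24 h, against 3.64%, 4.2% and 3.75% at 1 h. Genes not called took the rest, a smaller share at 24 h than at 1 h. Shares leave out the TMM factors and must sum to the whole, so no fall of the uncalled genes is read from this. As the genes were chosen on these libraries, the shares are a description.

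PH01001892G0210 had the largest rise in CPM among the called genes open to naming. It stood at 8496 and 13212 CPM at 24 h, against 6813, 5183 and 6073 CPM at 1 h, and at 8013, 7250 and 7072 CPM at 0.5 h and 6230, 4349 and 7955 CPM in the controls. The 24 h libraries lay above all the others, though 24 h replicate 1 was close to the highest 0.5 h library. Its mean was 10854 ± 3335 CPM at 24 h (SD, n = 2) and 6023 ± 817 CPM at 1 h (SD, n = 3), and the log2 fold change of 0.85 had an SE of 0.24 (edgeR adjusted p = 0.047). The call was lost in 14 of 20 alternatives, with adjusted p between 0.0037 and 0.34. Its size was 0.50 without 24 h replicate 2 (edgeR adjusted p = 0.34) and 1.13 without 24 h replicate 1 (edgeR adjusted p = 0.046), both on the log2 scale. The next 5 genes by gain in CPM, at 7329 to 9195 CPM at 24 h and 4496 to 5665 CPM at 1 h, had log2 fold changes of 0.48 to 0.71.

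Phyllostachys_edulis_newGene_31546, a gene listed under a newGene identifier, had the largest fold rise among the called genes open to naming, those with a mean log2 CPM of 3 or higher. Some called genes below that level rose by more. The newGene entry stood at 311 and 379 CPM at 24 h, against 0, 9.79 and 5.59 CPM at 1 h, and rested on 8306 and 11377 counts at 24 h, against 0, 340 and 184 counts at 1 h. Libraries of the earlier times were uneven too, at 228, 15.7 and 97.4 CPM at 0.5 h and at 0, 24.4 and 5.50 CPM in the controls. The 24 h libraries were the highest of all 11, while the 0.5 h libraries spanned more than the 1 h and control libraries together. On the log2 scale the fold change was 6.08, with an SE of 1.67 (edgeR adjusted p = 0.045). It lay between 5.47 and 8.71 over 20 alternatives, with the adjusted p from 0.026 to 0.11, and the call was lost in 11 of them, DESeq2 (adjusted p = 0.066) and every leave-out of a 24 h or 1 h library among these. The next 5 genes by fold, with 89.9 to 293 CPM at 24 h and 4.77 to 12.4 CPM at 1 h, had log2 fold changes of 4.03 to 4.77 and edgeR adjusted p-values from 2.2e-06 to 0.0012.

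PH01000320G0510 had the largest fold fall among the called genes open to naming, and some called genes below that level fell by more. PH01000320G0510 stood at 0.674 and 0.934 CPM at 24 h (18 and 28 counts), against 16.2, 10.9 and 14.0 CPM at 1 h (590, 378 and 461 counts). The groups were far apart, and the 0.5 h libraries (16.8, 17.7 and 18.4 CPM) and the controls (17.1, 16.1 and 23.5 CPM) lay near or above the highest 1 h library. On the log2 scale the fold change was -4.08, with an SE of 0.27 (edgeR adjusted p = 2.3e-05). It lay between -4.34 and -3.87 over 20 alternatives, and the gene was called in each, with an adjusted p of at most 0.00145. The next 5 by fold stood at 1.71 to 3.87 CPM at 24 h and 10.1 to 28.0 CPM at 1 h, with log2 fold changes from -3.09 to -2.56.

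PH01000752G0630 had the largest fall in CPM among these genes and a different course. It stood at 255 and 257 CPM at 24 h, against 385, 452 and 435 CPM at 1 h. The 24 h values lay within the control libraries (324, 360 and 218 CPM) and just below the 0.5 h libraries (303, 287 and 269 CPM), and the 1 h libraries were the highest of all 11. Its log2 fold change between 24 h and 1 h was -0.73, with an SE of 0.18 (edgeR adjusted p = 0.032) and a range of -0.94 to -0.69 over the alternatives and the adjusted p from 0.0013 to 0.15. The call was lost without either 24 h library and without 1 h replicate 2 or 3.

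**Figure D4:**
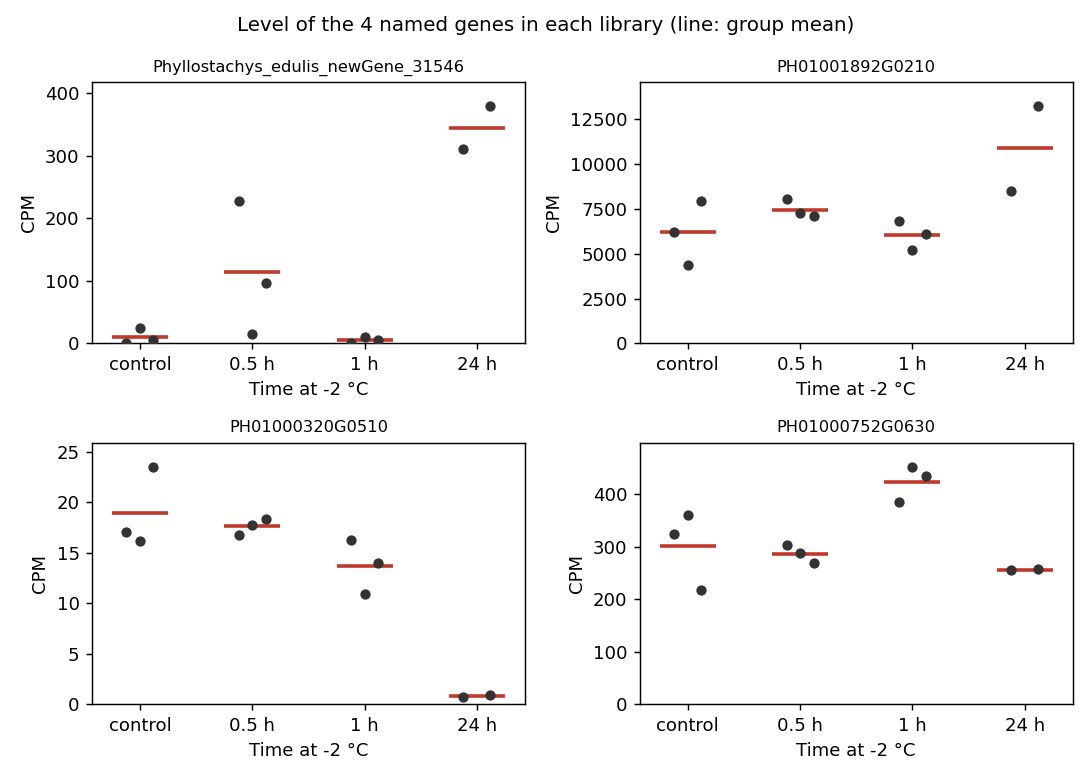
Points give the CPM of each of the 11 libraries (y axis, linear, from 0) for the 4 named genes at control, 0.5 h, 1 h and 24 h, and red lines give group means. PH01000320G0510 is below 1 CPM in both 24 h libraries, while the 24 h values of PH01000752G0630, 255 and 257 CPM, lie within the control range and below the 1 h values.

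For most called genes, the 24 h libraries also lay outside the control and 0.5 h libraries. Both 24 h libraries were above all 9 other libraries in 1597 (86.6%) of the 1844 risen genes, beside 10.8% of all genes tested, and below all 9 in 1883 (93.8%) of the 2007 fallen genes, beside 11.3%. The remaining 247 risen and 124 fallen genes overlapped with at least 1 of the 9. The 9 include the 3 libraries at 1 h that the genes were called on, so part of the gap to all genes was set by that choice. Of all genes tested, both 24 h libraries lay above all 3 at 1 h in 8104 and above all 9 in 4299. They lay below all 3 in 8693 and below all 9 in 4487. The risen genes had a median log2 fold change of 0.80 against 1 h, 0.54 against 0.5 h and 0.61 against the controls. The fallen genes had medians of -1.14, -0.99 and -1.03 against 1 h, 0.5 h and the controls. These contrasts share the 24 h libraries, and the genes were chosen on the 1 h contrast, so no order is read from these medians.

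**Figure D5:**
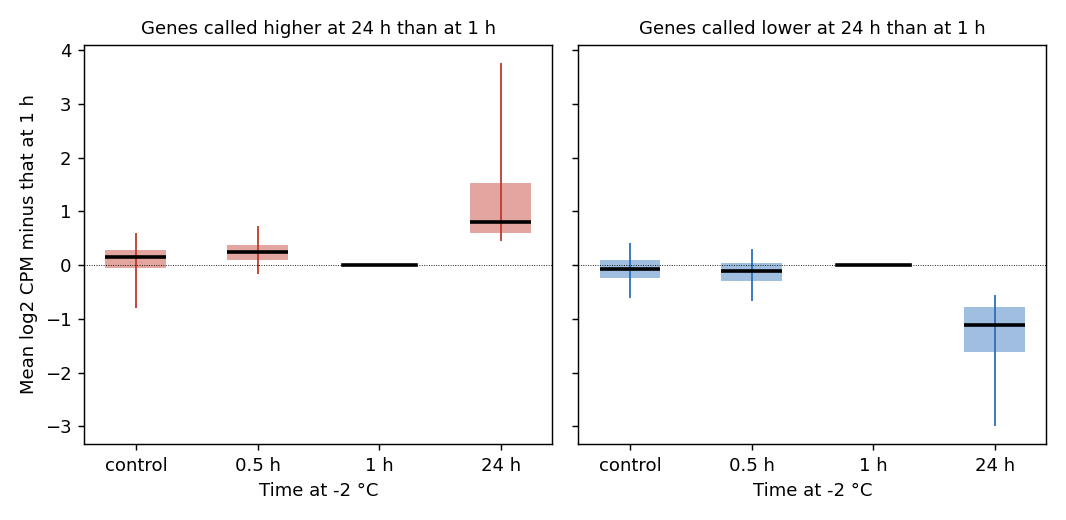
For the genes called higher (left) and lower (right) at 24 h than at 1 h, the mean log2 CPM at control, 0.5 h and 24 h is shown after subtracting that at 1 h. Black lines are medians over genes, boxes span the lower to the upper quartile and thin lines mark the tails without their most extreme genes. The medians at 24 h are 0.80 and -1.12, and those at 0.5 h and in the controls lie between -0.113 and 0.243.

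Few genes passed from near absence to clear presence. A class of 32 genes had 5 CPM or more in each 24 h library and less than 1 CPM in each 1 h library. Of these, 28 were called higher, beside 4.65% of all genes tested. The class is set by the same values as the calls, so nothing is read from that count. The 32 genes reached 5.76 to 68.7 CPM at 24 h (median 8.87), against a median of 0.377 CPM at 1 h. A newGene identifier was carried by 9 of them, beside 12352 of the 39640 genes tested. In the control and 0.5 h libraries, 11 of the 32 were below 1 CPM throughout and 6 reached 5 CPM in at least 1 library. The reverse was seen in 9 genes, below 1 CPM in both 24 h libraries and at 6.41 to 36.6 CPM at 1 h. Of these 9 genes, 6 were called lower, beside 5.06% of all genes tested, and the same limit holds. All 9 reached 5 CPM in at least 1 control or 0.5 h library, and 2 did so in all 6.

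Genes with a PH01 identifier were called more often than newGene entries, in 10.9% (2977 of 27288) and 7.08% (874 of 12352) of those tested. For PH01 genes and newGene entries the shares were 3.48% and 2.15% without 24 h replicate 1, 3.75% and 2.26% without 24 h replicate 2, 7.15% and 4.55% without 1 h replicate 2, and 7.09% and 4.88% without 1 h replicate 3. The newGene entries were counted more thinly, with a median of 2.28 CPM at 1 h against 9.92 CPM for PH01 genes. Within classes of mean level the order varied: 4.3% of PH01 genes and 2.72% of newGene entries were called below 1 CPM, 11% and 7.61% at 1 to 10 CPM, 12.1% and 11.6% at 10 to 100 CPM, and 21.1% and 28.9% at 100 CPM or more. By deposited gene length, in 4 classes of nearly equal number, 7.48% of the shortest genes (up to 1630) were called, 11.3% and 11% of the classes between and 8.99% of the longest (over 8476).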

How the data were processed

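RNA was measured in whole seedlings from libraries made with a NEBNext Ultra RNA kit, per the labels' protocols, which do not state whether the strand was kept. HISAT2 was used, per the submitters' processing notes; neither its version nor the genome build, annotation, counting tool and treatment of reads that match several genes is given in the sources used here. Near-identical copies and overlapping genes are therefore uncertain. The authors deposited a whole number per gene for each library, taken as a raw count, and another column with a gene length (138 to 396795), whose definition is not given. Columns were matched to samples by the codes in the sample descriptions. This left 1 column of counts that no label names, which was not used, and 24 h replicate 3, which was not analysed here. The codes of the labels skip a number that the table holds. Should the table's columns be numbered in another way, the unused column could be another 24 h library, and the group size, the replicate numbers at 24 h, the check of same-numbered libraries and the replicate block would change. This was not tested. The test planned for 3 libraries at 24 h was run with 2.

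All 11 libraries entered 1 edgeR fit (edgeR 4.0.16, R 4.3.3) with a mean for each of 4 groups, 7 residual and 3.86 prior degrees of freedom, after filterByExpr (39640 of 47091 genes kept) and TMM scaling. Genes with a Benjamini-Hochberg adjusted p under 0.05 in 24 h minus 1 h were called. Standard errors were taken from the log2 fold change and its F statistic (size over root of F). Log2 CPM used a prior count of 2. Named genes were the called genes with the largest rise and fall, in log2 fold and in CPM, among those whose mean log2 CPM was 3 or higher and whose 24 h and 1 h libraries did not overlap (1337 higher, 966 lower). At most 4 identifiers were named because no table pairs them with names. Alternatives used DESeq2 1.42.0, limma-voom (limma 3.58.1), other scalings, filters and sample sets. The abundance classes were followed through the alternatives only after their values were seen. The comparison, rules and classes were chosen with earlier results of these data known. The scripts were tested on simulated data, where fold sizes were recovered but many of the smaller changes put in were not called, so a gene not called may have changed. A limit on the share recovered was missed there and replaced by limits on bias and false calls.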

Additional observations from a re-analysis of the deposited data

How the results depend on the processing

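The count of 3851 genes between 24 h and 1 h (1844 higher, 2007 lower) was 5929 with DESeq2 (2895 higher, 3034 lower) and 1711 in a fit of the 5 libraries alone (962 higher, 749 lower). Library size alone gave 963 higher and 4245 lower, and limma-voom 1319 lower. Leaving out 1 library at a time gave 1260 to 3841 genes, 581 to 1881 higher and 679 to 1960 lower. The total lay within 1.5 times of the reported count in 14 of 20 alternatives, the higher count in 13 and the lower count in 14. The labels give all groups replicate numbers, but nothing ties equal numbers to a shared plant or day. The deviations of same-numbered 24 h and 1 h libraries correlated at -0.107 and -0.027 across genes. With 2 libraries at 24 h, their deviations from the group mean mirror each other, so these values can hardly show or exclude a pairing. The fit with a replicate block called 2712 genes, 1358 higher and 1354 lower. No named gene changed direction in any alternative. The naming rule required 24 h and 1 h libraries without overlap, so this was nearly fixed by the choice and nothing is read from it. With library totals of 29304206 to 34543663 counts, genes below 1 CPM had a median standard error of 0.917 on the log2 scale, so changes of the size common among abundant genes were not detectable there. For the changes of count with tool and sample set, the cause was not tested.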

Other observations

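Identifiers of the PH01 type share a stem before the letter G, and the sources used here do not give what the stem stands for. Of the 1349 risen PH01 genes with a tested neighbour, meaning the nearest tested identifier before or after it in number under the same stem, 188 (13.9%) had a neighbour that was also called higher, beside 9.19% of all 25159 PH01 genes with a tested neighbour. Of the 1414 fallen genes, 135 (9.55%) had a neighbour called lower, beside 9.3%. The risen genes thus had like neighbours more often than the average gene and the fallen genes about as often, which was not tested. Reads of near-identical neighbouring copies may have been counted for both.

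At 1 h all 3 libraries lay below all 6 control and 0.5 h libraries in 228 (12.4%) of the genes called higher at 24 h, beside 789 (1.99%) of all genes tested. They lay above all 6 in 132 (6.58%) of the genes called lower at 24 h, beside 716 (1.81%). PH01000752G0630 is of the second kind. Genes were called partly on low or high values in these same 1 h libraries, so that choice and a passing change at 1 h cannot be told apart in these shares.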
